A study of Rattus norvegicus with 9 samples.

Results

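PMLGH against Model is the comparison of tibia RNA from rats given the material called PMLGH with tibia RNA from the Model group. It rests on 6 of the 9 libraries of the series, namely PMLGH replicates 2, 3 and 4 and Model replicates 1, 2 and 5, and it covers every gene of the count table. All libraries are total RNA from the tibia of male Sprague Dawley rats (Rattus norvegicus). The remaining 3 libraries, GelMA replicates 2, 3 and 4, come from rats given GelMA, which is commonly short for gelatin methacryloyl, a modified gelatin that light sets into a hydrogel. They entered the fit and serve here to show where PMLGH differed from GelMA. The labels give no age, no time of sampling, no name in full for PMLGH and no account of what was done to the Model rats. The study's title speaks of a peptide that imitates lysyl oxidase and of bone healing in diabetes, and no label says which groups were diabetic. No label states that the replicates are separate animals, so the p-values measure the spread between these libraries, which may be technical. No label names a batch, so batch and group cannot be told apart.

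Bone heals through an early wave of inflammation, in which resident and incoming cells release chemokines and cytokines, followed by the laying down of a collagen matrix that osteoblasts mineralize and osteoclasts remodel. Lysyl oxidase acts late in that chain: it oxidizes lysines of secreted collagen and elastin so that the fibrils cross-link. The inside of the tibia is filled with marrow, where red cells, granulocytes and B cells are made, and marrow RNA is therefore part of every such sample.

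Total counts ran from 34571478 to 37166383 per library. On the first principal component, which held 34.4% of the variance of log2 CPM (counts scaled to a common library size), the Model libraries lay between -45.5 and -36.5 and the PMLGH libraries between 21.2 and 24.4, near the GelMA libraries. The second component, with 15.4%, separated PMLGH (-26.1 to -22.3) from GelMA (20.0 to 31.5). Among the Model libraries replicate 2 was the most distant: the mean chi-square per gene was 33.0 against Model 1 and 27.7 against Model 5, where these had 15.7 between them and pairs of PMLGH libraries had 12.1 to 17.1. Defining genes of bone and marrow were present in every library, Col1a1 at 8759 CPM or more and Alas2 at 1651 CPM or more. In such bulk samples, fewer cells of a type and less RNA per cell cannot be told apart.

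Of 16816 genes tested, 2637 (15.7%) rose and 1994 (11.9%) fell in PMLGH against Model, 27.5% in all (edgeR's quasi-likelihood test, adjusted p under 0.05). Each count of list members below is to be read against these shares, and some lists lie near them. The lists were chosen with earlier results of these data known, so a count above the shares is not separate support. The rises were the larger changes. The median called rise was 0.57 and the median called fall -0.33 on the log2 scale, and 571 rises but 80 falls reached 2-fold. A test of whether the change exceeds 1.5-fold passed 408 genes upward (2.43%) and 13 downward (0.0773%). The split by level ran in opposite ways. Among the 4277 genes with a mean of 1 to 10 CPM, 16.3% rose and 4.16% fell. Among the 1860 genes at 100 to 1000 CPM, 18.3% rose and 31.8% fell, and of the 77 genes above 1000 CPM 10 rose and 31 fell. Without PMLGH 3, 1268 genes fell. Under upper-quartile scaling 2370 genes rose and 2495 fell, so that 48.7% of the called genes were rises against 56.9% under TMM scaling, which is used throughout. The median log2 fold change of all genes was 0.02 and stayed within 0.1 of 0 under each scaling. The 13 genes that fell beyond 1.5-fold numbered 46 without Model 2 and 6 without Model 1 or PMLGH 3.

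**Figure D1:**
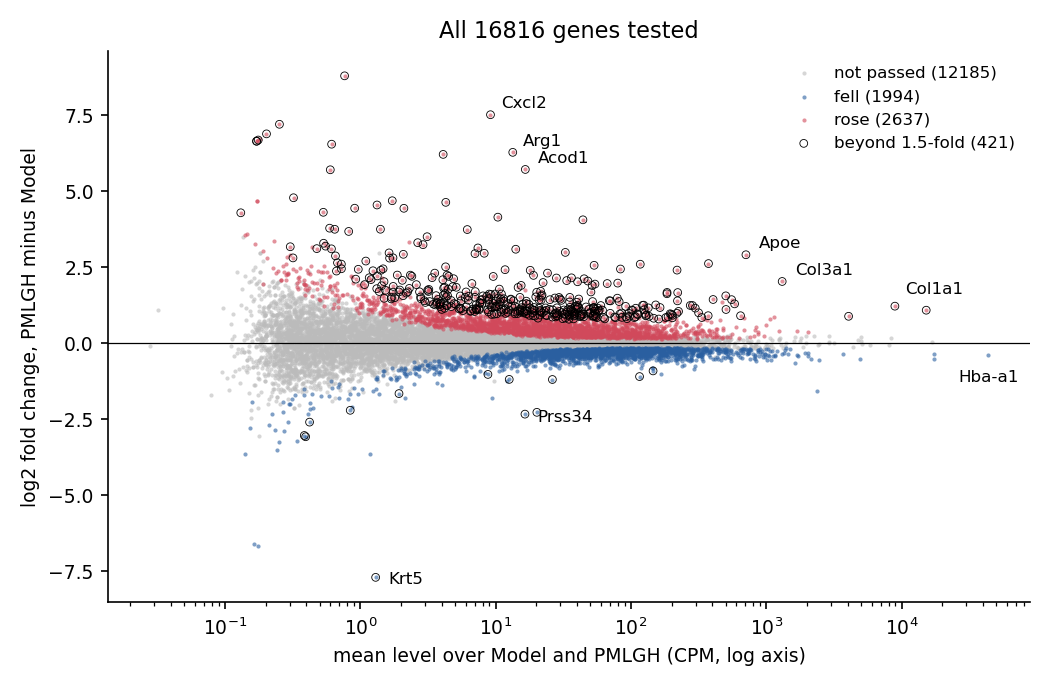
Each of the 16816 genes tested is a point, with its mean level over the Model and PMLGH libraries (CPM, log axis) against the log2 fold change of PMLGH minus Model. Red points rose, blue points fell, and open circles mark changes shown to exceed 1.5-fold, of which 408 lie above 0 and 13 below.

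The genes with the largest rises were led by chemokines, the small secreted proteins that draw white blood cells into tissue. Of the 25 named genes with the largest rises, 9 encode chemokine ligands: Cxcl2, Cxcl3, Ccl7, Cxcl11, Cxcl13, Cxcl1, Cxcl10, Cxcl9 and Ccl2. They were scarce in Model, and 17 of the 25 genes had a Model mean under 1 CPM. The others include Arg1 and Acod1, a pair of enzymes of activated macrophages, Apoe, which carries lipid out of cells, and Ptges, which makes prostaglandin E. The choice of all 25 genes required that the PMLGH and Model libraries not overlap, so that separation is not a result.

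Ligands of the receptor CXCR2, which guide neutrophils, included Cxcl2, the largest of the named rises. Cxcl2 had 0, 0.225 and 0.0587 CPM in Model 1, 2 and 5 and 19.5, 17.9 and 17.4 CPM in PMLGH 2, 3 and 4. The PMLGH libraries lie close together and far above all Model libraries, of which the first held no read. The log2 fold change was 7.51 ± 0.31 (approximate SE, n = 3 per group, edgeR adjusted p = 3.8e-10), and without Model 2, which held most of the few Model counts, it was 9.09. That shift is larger than the SE, which is derived from the test statistic and can be too small where counts are few. Cxcl3, a close relative, went from 0.0295, 0.225 and 0.0587 to 8.85, 8.81 and 6.596 CPM (6.21 ± 0.38, and 7.38 without Model 2). Cxcl1 went from 0.324, 0.338 and 0.851 to 6.13, 5.20 and 5.86 CPM (3.50 ± 0.32, adjusted p = 1.6e-06), and Cxcl6 from 4.13, 2.48 and 3.40 to 9.69, 11.4 and 11.3 CPM (1.70 ± 0.18, adjusted p = 5.6e-06). No Model library reached the lowest PMLGH library for Cxcl6 either, whereas the choice of the largest rises required this of Cxcl1, Cxcl2 and Cxcl3. Cxcr2, the receptor itself, rose by 0.63 ± 0.14, with Model 2 (53.8 CPM) nearly level with PMLGH 2 (54.4 CPM). Of the 7 tested genes of this group 5 rose and 2 fell, with a median of 1.70. The 2 that fell encode the platelet chemokines Ppbp and Pf4, the latter named after its values were seen. Ppbp had 132, 112 and 126 CPM in Model and 87.7, 84.4 and 90.8 CPM in PMLGH, a fall of 0.49 ± 0.08. Without Model 1, Model 5, GelMA 2, PMLGH 3 or PMLGH 4, 1 gene of the group fell instead of 2. GelMA stood at 12.9 ± 1.35 CPM for Cxcl2 (SD, n = 3) and 8.74 ± 1.13 CPM for Cxcl6. The comparison of PMLGH with GelMA, given beside some results, shares its PMLGH libraries with that against Model.

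Ligands of CXCR3, the receptor of activated T and NK cells, moved alike. Cxcl10 had 1.27, 2.03 and 1.23 CPM in Model and 14.4, 13.5 and 11.97 CPM in PMLGH, a rise of 3.13 ± 0.19 (adjusted p = 1.5e-08). Cxcl9 had 1.98, 4.87 and 2.00 CPM in Model and 29.2, 25.3 and 21.1 CPM in PMLGH, a rise of 3.09 ± 0.25. Within Model, replicate 2 was the highest for both, and it still lay several-fold below the lowest PMLGH library. For both genes the choice of the largest rises required that PMLGH and Model not overlap. Cxcl11 had 0.708, 0.169 and 0.117 CPM in Model and 10.6, 7.52 and 6.57 CPM in PMLGH (4.63 ± 0.39, and 5.81 without Model 1). Cxcr3, the receptor, rose by 1.06 ± 0.16 from 4.601, 4.73 and 3.46 to 8.39, 10.2 and 8.12 CPM. All 4 genes of the group rose, with a median of 3.11. Cxcl10 was also higher in PMLGH than in GelMA, where it had 5.03, 4.70 and 5.40 CPM (log2 difference 1.40 ± 0.16, adjusted p = 0.00015).

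The promoters of these chemokine genes are shown because their members moved together and because several carry the letters of a binding site of NF-kappaB, a transcription factor of inflammation. Each line holds the 160 bases before the start of the gene as RefSeq annotates it on GRCr8, read 5′ to 3′ on the strand of the gene. Capitals mark each match to the motif, GGG followed by any 3 bases and then TTCC, on either strand. The motif is close to its own reverse complement, so the same site can match on both strands. Cxcl2 lies on the minus strand at chr14:17467256-17467415, and Cxcl1 on the minus strand at chr14:17479322-17479481. The plus strand holds Cxcl10 at chr14:15988906-15989065, Cxcl11 at chr14:15973568-15973727 and Cxcl9 at chr14:16007006-16007165.
Cxcl2: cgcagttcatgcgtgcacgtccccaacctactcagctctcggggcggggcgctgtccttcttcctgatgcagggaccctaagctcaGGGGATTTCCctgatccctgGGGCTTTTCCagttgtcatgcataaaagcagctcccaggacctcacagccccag
Cxcl1: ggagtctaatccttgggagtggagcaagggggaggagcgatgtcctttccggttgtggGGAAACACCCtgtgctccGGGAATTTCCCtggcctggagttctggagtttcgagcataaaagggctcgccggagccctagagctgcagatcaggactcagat
Cxcl10: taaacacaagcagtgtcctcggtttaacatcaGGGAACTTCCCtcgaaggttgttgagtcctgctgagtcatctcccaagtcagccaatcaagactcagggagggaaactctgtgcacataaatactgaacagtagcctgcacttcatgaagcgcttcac
Cxcl11: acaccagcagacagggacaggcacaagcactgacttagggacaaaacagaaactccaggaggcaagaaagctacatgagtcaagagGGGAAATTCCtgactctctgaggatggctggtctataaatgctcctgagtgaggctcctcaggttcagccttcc
Cxcl9: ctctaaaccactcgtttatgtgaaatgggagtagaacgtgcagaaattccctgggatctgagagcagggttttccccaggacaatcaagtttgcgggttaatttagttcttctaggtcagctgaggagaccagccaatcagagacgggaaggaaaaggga

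In these windows the Cxcl2 promoter matched 74 and 54 bases before the start, Cxcl11 matched at 74, and Cxcl1 matched at 102 and, on both strands, at 84 and 83. Cxcl10 matched at 128 and 127, with a further match at 187, outside the bases shown. Cxcl9 had no match in its 250 bases. Over the 250 bases before the start, 765 of 12519 tested genes with a promoter in the table (6.11%) hold the motif. It was found in 6 of the 18 largest rises with a promoter (33.3%), in 3 of 5 genes of the CXCR2 group and in 2 of 4 of the CXCR3 group. The motif was also in 5 of 12 CC chemokine and receptor genes and in 9 of 20 NF-kappaB targets (45%). Among the largest falls it was found in 3 of 21 (14.3%), also above the share of all promoters, and among DNA replication genes in 1 of 29. These sets share genes, such as Cxcl1 and Cxcl2, and the NF-kappaB list was drawn up as targets of that factor. The shares are therefore not separate support. TGANTCA, the letters of an AP-1 site, was present in 4 of the 18 rises (22.2%) and in 5.3% of all promoters. It was in 0 of 5 genes of the CXCR2 group and in 2 of 4 of the CXCR3 group, as many as held the NF-kappaB motif. Among CC chemokine and receptor genes 2 of 12 held it, and among NF-kappaB targets 5 of 20. AP-1 letters are not marked in the sequences shown. A match describes letters only and does not show that a factor was bound.

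The CC class of chemokines acts on monocytes and T cells. Ccl2, the main monocyte attractant, had 2.27, 1.35 and 1.23 CPM in Model and 11.8, 14.02 and 11.6 CPM in PMLGH, a rise of 2.94 ± 0.21 (adjusted p = 1.4e-07). Ccl3, made by activated macrophages, had 5.93, 7.69 and 5.96 CPM in Model and 25.6, 23.3 and 24.1 CPM in PMLGH, a rise of 1.90 ± 0.13. In both cases each PMLGH library exceeded every Model library at least 3-fold. For Ccl2, but not for Ccl3, the choice of the largest rises required that these libraries not overlap. Ccr1, a receptor of Ccl3, rose by 0.56 ± 0.06. Of the 17 genes tested 12 rose and 1 fell (median 0.87). Ccl2 (1.23 ± 0.19, adjusted p = 0.0014), Ccl3 (0.89 ± 0.12, adjusted p = 0.00052) and Ccr1 (0.37 ± 0.06, adjusted p = 0.0023) were also higher in PMLGH than in GelMA, as were 5 of the 17 in all. Of all genes tested 3.44% differed between PMLGH and GelMA, 1.80% being higher in PMLGH and 1.64% lower. Among chemokines of lymphoid tissue, Cxcl13, which draws B cells into follicles, had 4.63, 4.98 and 5.40 CPM in Model, 54.4 ± 8.84 CPM in GelMA and 102, 79.1 and 69.1 CPM in PMLGH, a rise over Model of 4.06 ± 0.16. Cxcl12, the chemokine that holds blood stem cells in the marrow, had 1004, 1134 and 1041 CPM in Model and 1136, 1133 and 1163 CPM in PMLGH and did not pass (0.11 ± 0.06, adjusted p = 0.21).

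**Figure D2:**
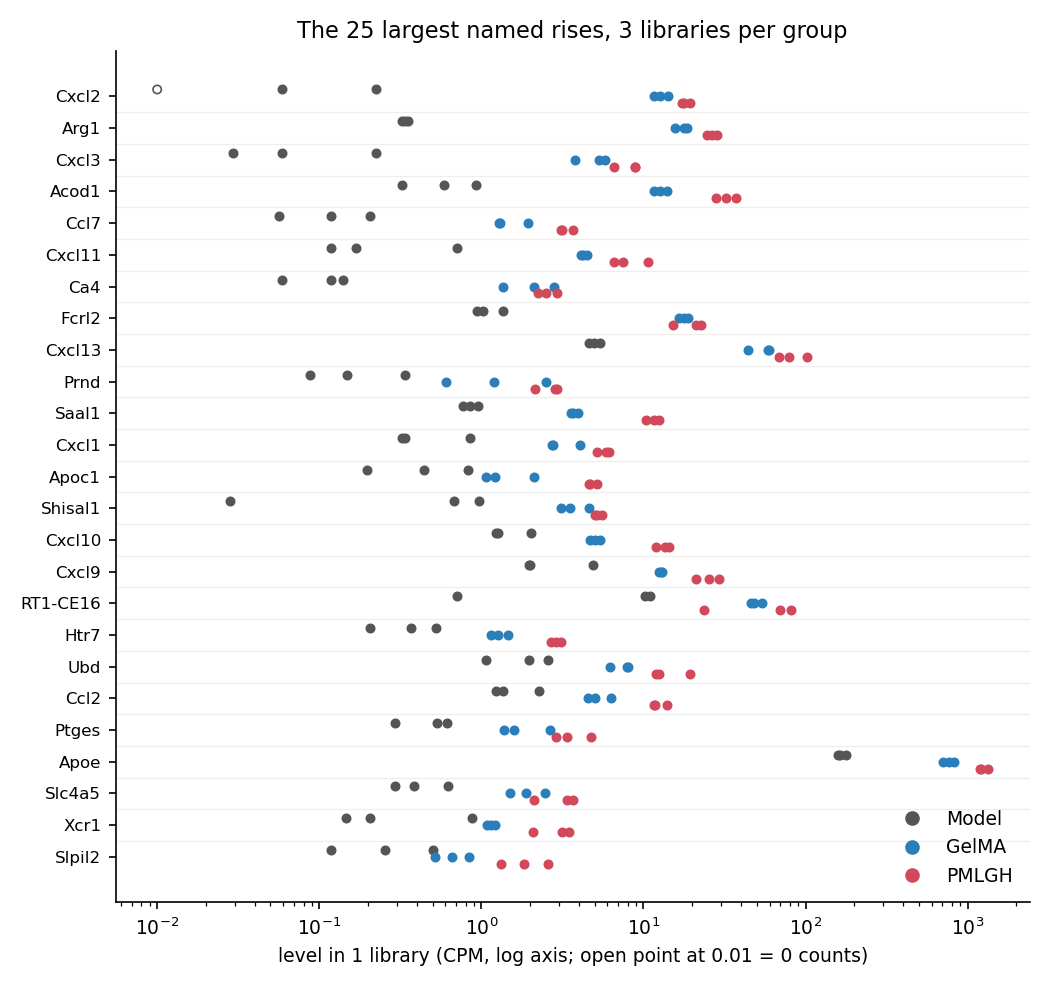
Levels of the 25 largest named rises in each of the 9 libraries (CPM, log axis), with Model in grey, GelMA in blue and PMLGH in red, and an open point for a library with 0 counts. For Cxcl2 the PMLGH libraries sit between 17.4 and 19.5 CPM and the Model libraries at or below 0.225 CPM.

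Among the genes that rose were cytokines that start inflammation and the genes that limit them. Il1b, a cytokine released by activated myeloid cells, had 11.3, 15.9 and 13.0 CPM in Model and 52.4, 65.0 and 60.5 CPM in PMLGH (2.15 ± 0.11, adjusted p = 3.7e-09). Il1a, its relative, had 0.796, 1.58 and 1.35 CPM in Model and 5.72, 5.71 and 5.21 CPM in PMLGH (2.15 ± 0.25). All PMLGH libraries were above all Model libraries for both. Il1rn, the natural blocker of their receptor, had 35.0, 43.4 and 32.0 CPM in Model and 62.9, 80.7 and 74.1 CPM in PMLGH (0.98 ± 0.11), and Il1r1, the receptor, rose by 1.11 ± 0.09. Of 15 genes of the interleukin-1 family 10 rose (median 0.51). Il6, which was near the limit of detection in Model at 0.059, 0.141 and 0.0294 CPM, had 1.78, 1.75 and 1.69 CPM in PMLGH (4.44 ± 0.59, and 5.17 without Model 2). Socs3, the feedback inhibitor that STAT3 induces, had 15.0, 12.1 and 11.8 CPM in Model and 56.2, 52.8 and 53.1 CPM in PMLGH (2.06 ± 0.09, adjusted p = 5.8e-10), with no overlap. Of 14 genes of the interleukin-6 family 10 rose (median 0.56), among them the shared receptor chain Il6st (0.58 ± 0.05) and the leukaemia inhibitory factor Lif (1.15 ± 0.19).

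Of 23 targets and regulators of NF-kappaB, 16 rose and none fell (median 0.54). Sod2, a mitochondrial enzyme that removes superoxide, had 81.4, 82.0 and 85.4 CPM in Model, 131, 123 and 124 CPM in GelMA and 172, 199 and 185 CPM in PMLGH, and the 3 groups did not overlap. It rose by 1.16 ± 0.06 over Model (adjusted p = 4.4e-09) and was higher than in GelMA by 0.56 ± 0.06 (adjusted p = 8.8e-05). Nfkbiz, a nuclear cofactor of NF-kappaB, had 20.3, 17.8 and 20.8 CPM in Model, 22.2, 22.6 and 23.0 CPM in GelMA and 36.2, 36.6 and 34.5 CPM in PMLGH. Here GelMA lay near Model, with a rise of 0.86 ± 0.08 over Model and a difference of 0.66 ± 0.08 (adjusted p = 0.00015) from GelMA. Tnfaip3, an enzyme that switches the pathway off, rose by 1.00 ± 0.12, and the inhibitor Nfkbia rose by 0.44 ± 0.08. Nfkbib, another inhibitor, had 19.0, 21.0 and 16.1 CPM in Model and 16.5, 15.7 and 18.1 CPM in PMLGH, with overlap, and did not pass (-0.16 ± 0.11). Of 18 Toll-like receptor genes and their partners 11 rose (median 0.53). Cd14, a receptor for bacterial lipopolysaccharide, had 18.6, 19.4 and 17.1 CPM in Model and 51.1, 58.5 and 47.2 CPM in PMLGH (1.51 ± 0.09), and Tlr2, a receptor for bacterial lipoproteins, had 21.97, 26.8 and 23.2 CPM in Model and 44.4, 53.0 and 52.6 CPM in PMLGH (1.06 ± 0.09). Both were higher than in GelMA, by 0.67 ± 0.09 (adjusted p = 0.00045) and 0.51 ± 0.09 (adjusted p = 0.0031).

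Enzymes that mark activated macrophages were among the largest rises. Arg1, which splits arginine into ornithine and urea, had 0.354, 0.338 and 0.323 CPM in Model, 17.8, 15.7 and 18.6 CPM in GelMA and 28.3, 26.4 and 24.6 CPM in PMLGH. Its 3 Model libraries were almost equal, and the log2 fold change was 6.27 ± 0.16 over Model (adjusted p = 2.3e-12) and 0.60 ± 0.10 (adjusted p = 0.0021) over GelMA. Acod1, which makes itaconate, had 0.59, 0.929 and 0.323 CPM in Model, 11.6, 12.6 and 13.9 CPM in GelMA and 27.9, 37.3 and 32.4 CPM in PMLGH, a rise of 5.71 ± 0.22 over Model and a difference of 1.36 ± 0.15 (adjusted p = 9.9e-05) from GelMA. Nos2, which makes nitric oxide from the same arginine, had 12.7, 18.3 and 15.4 CPM in Model and 77.9, 101 and 94.8 CPM in PMLGH (2.56 ± 0.12), and the arginine importer Slc7a2 had 5.66, 5.29 and 7.34 CPM in Model and 16.3, 17.8 and 16.4 CPM in PMLGH (1.46 ± 0.13). PMLGH and Model did not overlap for Nos2 and Slc7a2 either, whereas the choice of the largest rises required this of Arg1 and Acod1. Of 12 enzymes of arginine, polyamine and itaconate metabolism 6 rose and 1 fell (median 0.33). The count of falls was 0 without Model 1, Model 5 or PMLGH 3, and 2 without Model 2, GelMA 3 or GelMA 4. In prostaglandin synthesis, the inducible cyclooxygenase Ptgs2 had 2.01, 1.91 and 2.76 CPM in Model and 6.34, 6.82 and 5.996 CPM in PMLGH (1.52 ± 0.18), and the synthase Ptges had 0.295, 0.535 and 0.616 CPM in Model and 2.89, 4.77 and 3.38 CPM in PMLGH (2.92 ± 0.36). Of all 20 prostaglandin and leukotriene genes 5 rose and 2 fell, with a median of 0.12, where 15.7% of all genes tested rose and 11.9% fell. Without Model 1, Model 5, GelMA 2 or PMLGH 2, 1 fell, under upper-quartile scaling 4 fell, and without Model 2 the median was 0.19.

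Several genes of complement, the set of plasma proteins that tags particles for uptake, were higher in PMLGH than in both other groups. C1s, a protease of its first complex, had 33.2, 30.5 and 33.3 CPM in Model, 91.0, 86.5 and 93.7 CPM in GelMA and 133, 131 and 118 CPM in PMLGH. C1r, its partner, had 74.1, 75.8 and 70.6 CPM in Model, 131, 137 and 133 CPM in GelMA and 181, 175 and 169 CPM in PMLGH. The 3 groups were separate for both genes, with PMLGH on top. The rises over Model were 1.98 ± 0.07 and 1.25 ± 0.05 (adjusted p = 4.2e-11 and 6.2e-10), and the differences from GelMA were 0.49 ± 0.06 (adjusted p = 0.00025) and 0.39 ± 0.05 (adjusted p = 0.0005). C2, the next protease of the pathway, rose by 0.97 ± 0.06 over Model and was higher than in GelMA by 0.41 ± 0.06 (adjusted p = 0.0009). C1qa, a recognition subunit of the same complex, had 179, 192 and 192 CPM in Model and 206, 208 and 216 CPM in PMLGH and did not pass against Model (0.16 ± 0.06, adjusted p = 0.06), although it passed on both FPKM scales. Of 18 complement genes 13 rose (median 0.52), and 8 were higher than in GelMA, against 1.80% of all genes tested. The count of rises lay between 9 and 13 without single libraries and was 11 under upper-quartile scaling. Without Model 2, 2 members fell where none fell with all libraries.

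Genes of antigen presentation and of lipid handling rose too. RT1-Da, a chain of a rat MHC class II molecule, had 81.1, 110.3 and 73.7 CPM in Model and 293, 287 and 263 CPM in PMLGH (1.67 ± 0.12, adjusted p = 9.2e-08). Cd74, the chaperone of those chains, had 318, 394 and 301 CPM in Model and 863, 836 and 786 CPM in PMLGH (1.29 ± 0.09). Model 2 was the highest Model library for both and stayed well below PMLGH. Of 15 class II genes 11 rose (median 0.52), and the counts of RT1 genes are uncertain because copies of them are alike. Apoe had 158, 177 and 163 CPM in Model, 768, 706 and 828 CPM in GelMA and 1210.5, 1340.2 and 1193 CPM in PMLGH (2.91 ± 0.08 over Model, adjusted p = 2.9e-12, and 0.70 ± 0.07, adjusted p = 4.7e-05 over GelMA). The choice of the largest rises required that PMLGH and Model not overlap for Apoe, and GelMA lay between them without overlap. Abca1, the transporter that loads lipid onto apolipoproteins, had 55.4, 65.9 and 47.4 CPM in Model, 52.7, 59.7 and 63.1 CPM in GelMA and 98.9, 126 and 103 CPM in PMLGH. GelMA overlapped Model here, with a rise of 0.96 ± 0.11 over Model and a difference of 0.90 ± 0.11 (adjusted p = 0.00022) from GelMA. Apoc4, another apolipoprotein, had 1 count over the Model libraries and 135 over the PMLGH libraries, a ratio of 126 with a 95% interval of 22.2 to 5015 that covers counting error only. Of 15 apolipoprotein and cholesterol efflux genes 11 rose (median 0.41). Among 25 lysosomal proton pump and cathepsin genes 15 rose and 1 fell (median 0.22), among them Ctsc, which activates the proteases of granules (0.92 ± 0.07 over Model, 0.50 ± 0.07, adjusted p = 0.00057 over GelMA). The single fall was lost without Model 1, Model 5 or any of the PMLGH libraries. Of 7 genes of the phagocyte oxidase 3 rose (median 0.30). Without Model 2, 6 rose (median 0.46), and without Model 1 the median was 0.20. Of 13 genes of iron-recycling macrophages 2 rose and 4 fell (median -0.20). In that group 1 rose without Model 1, Model 5 or any PMLGH library, 2 fell without Model 5, and 8 fell under upper-quartile scaling.

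Granule genes of neutrophils gave counts that depend on single libraries. Mpo, the peroxidase of primary granules, had 1054, 1377 and 1136 CPM in Model and 1162, 1345 and 1395 CPM in PMLGH, which overlap (0.13 ± 0.09, adjusted p = 0.32). Elane, the elastase of the same granules, had 218, 293 and 243 CPM in Model and 243, 261 and 273 CPM in PMLGH (0.04 ± 0.09, adjusted p = 0.77). Model 2 was the highest Model library for both. Without it Mpo passed (adjusted p = 0.022), and 3 of the 5 primary granule genes rose. Of 11 genes of later granules 4 rose (median 0.27), a count of 9 without Model 2, 2 without PMLGH 3 and 1 without Model 1 or PMLGH 4. Mmp9, the gelatinase of those granules that osteoclasts also make, had 469, 555 and 444 CPM in Model and 688, 730.0 and 709 CPM in PMLGH (0.53 ± 0.07).

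The largest gains in absolute level were in the collagen matrix. Col1a1 and Col1a2 encode the chains of type I collagen, the main protein of bone. Col1a1 had 9929, 10513 and 8759 CPM in Model and 20485, 22309 and 19129.8 CPM in PMLGH (1.08 ± 0.08, adjusted p = 1.7e-07). Col1a2 had 5440.1, 5977 and 4670.0 CPM in Model and 12358, 13332 and 11712 CPM in PMLGH (1.22 ± 0.09). Every PMLGH library lay far above every Model library. The mean gains of 10908 and 7105 CPM were the largest of any called gene, and Sparc, which binds collagen in bone, followed with 2410 CPM (0.88 ± 0.07). Col3a1, the collagen of healing tissue, had 545, 467 and 535 CPM in Model, 1340.2, 1580.4 and 1478 CPM in GelMA and 1914, 2386 and 2013 CPM in PMLGH. It rose by 2.03 ± 0.09 over Model and exceeded GelMA by 0.52 ± 0.09 (adjusted p = 0.0029). Col1a1 stood at 18386 ± 1109 CPM in GelMA and did not pass against it (log2 difference 0.17 ± 0.08, adjusted p = 0.33). With the replicate number as a block that difference passed (adjusted p = 0.046).

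Lox, the lysyl oxidase that the study's peptide is said to imitate, had 41.9, 42.9 and 40.8 CPM in Model, 84.4, 89.9 and 91.8 CPM in GelMA and 121, 128 and 101 CPM in PMLGH. The Model libraries were nearly equal, and the 3 groups did not overlap. The rise over Model was 1.48 ± 0.08 (adjusted p = 3.8e-09). The difference from GelMA was 0.40 ± 0.07 (adjusted p = 0.0068), a call that was lost without PMLGH 3 and on both FPKM scales, with a highest adjusted p of 0.068. Of 26 genes that hydroxylate, fold and export collagen 22 rose (median 0.50), and 4 were higher than in GelMA, against 1.80% of all genes tested. Serpinh1, the collagen chaperone, had 266, 264 and 247 CPM in Model and 459, 514 and 481 CPM in PMLGH (0.90 ± 0.06). Plod2, which hydroxylates the lysines that Lox later oxidizes, had 101, 102 and 96.7 CPM in Model and 159.6, 167 and 155 CPM in PMLGH (0.69 ± 0.05), and its GelMA level of 156 ± 4.53 CPM was near that of PMLGH (0.05 ± 0.05, adjusted p = 0.75). Creb3l1, a transcription factor of collagen secretion, rose by 1.12 ± 0.09, and P4ha1, a prolyl hydroxylase of collagen, rose by 0.63 ± 0.07.

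Of 15 proteoglycans of the matrix 13 rose (median 0.88), and the libraries of all 15 were separate between groups, against 39.4% of all genes tested. Lum, which spaces collagen fibrils, had 315, 304 and 280.3 CPM in Model, 573, 576 and 567 CPM in GelMA and 786, 862 and 778 CPM in PMLGH (1.43 ± 0.06 over Model, adjusted p = 6.2e-10, and 0.50 ± 0.06, adjusted p = 0.00022 over GelMA). Bgn, the main small proteoglycan of bone, had 469, 454 and 426 CPM in Model and 829, 893 and 800.0 CPM in PMLGH (0.90 ± 0.06), and Dcn, which binds collagen and TGF-beta, rose by 0.75 ± 0.07. Matricellular proteins, which signal from the matrix to cells, rose in 15 of 19 cases (median 0.80). Postn, of periosteum and ligament, had 124, 79.8 and 111 CPM in Model, 310.2, 371 and 353 CPM in GelMA and 609.8, 711 and 608 CPM in PMLGH. Thbs2, a thrombospondin, had 75.8, 53.9 and 79.3 CPM in Model, 214, 228 and 214 CPM in GelMA and 364, 392 and 349 CPM in PMLGH. For each the order was Model, GelMA, PMLGH with no overlap, and Model 2 was the lowest library of all. Rises over Model were 2.62 ± 0.13 for Postn, 2.40 ± 0.11 for Thbs2 and 2.60 ± 0.10 for the tenascin Tnn, and differences from GelMA were 0.90 ± 0.12 (adjusted p = 0.00046), 0.75 ± 0.10 (adjusted p = 0.00057) and 0.68 ± 0.09 (adjusted p = 0.0005). Sparcl1, a relative of Sparc, rose over Model as well (0.89 ± 0.07) but had its highest level in GelMA (83.6 ± 5.13 CPM against 70.4, 66.1 and 65.3 CPM in PMLGH). Tnc, a tenascin of wounds, rose by 0.59 ± 0.12, with GelMA at 338 ± 31.5 CPM.

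Of 17 genes of elastic fibres 13 rose and 1 fell (median 0.70). Fbln2, a fibulin that links elastic fibres to basement membranes, had 5.43, 4.45 and 7.40 CPM in Model and 30.0, 31.4 and 29.4 CPM in PMLGH (2.40 ± 0.13). Fbn1, the main microfibril protein, had 89.0, 93.9 and 86.4 CPM in Model and 155, 183 and 165 CPM in PMLGH (0.90 ± 0.07), and Eln, elastin, which Lox also cross-links, had 9.94, 5.997 and 9.92 CPM in Model and 13.5, 22.6 and 18.8 CPM in PMLGH (1.09 ± 0.19). Of 16 ADAMTS proteases, secreted enzymes that trim procollagen or proteoglycans, 12 rose and none fell (median 0.99). Adamts2, which removes the end of procollagen, had 31.6, 32.9 and 32.9 CPM in Model and 69.0, 75.1 and 75.3 CPM in PMLGH (1.17 ± 0.07). Adamts1, which cuts proteoglycans, had 7.79, 7.38 and 8.45 CPM in Model, 12.6, 13.9 and 12.5 CPM in GelMA and 23.4, 21.8 and 21.97 CPM in PMLGH (1.51 ± 0.10 over Model, 0.79 ± 0.10, adjusted p = 0.00022 over GelMA). Among 14 receptors for collagen and fibronectin 11 rose (median 0.44). Itga11, an integrin chain of fibroblasts that binds collagen, had 22.3, 22.9 and 20.8 CPM in Model, 37.4, 44.8 and 44.3 CPM in GelMA and 61.4, 65.1 and 54.1 CPM in PMLGH, in that order and without overlap (1.45 ± 0.09 over Model, 0.51 ± 0.08, adjusted p = 0.0024 over GelMA). Itga2, the collagen receptor chain of platelets and epithelia, had 31.7, 26.0 and 29.6 CPM in Model and 30.3, 29.6 and 25.02 CPM in PMLGH and did not pass (-0.04 ± 0.09).

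**Figure D3:**
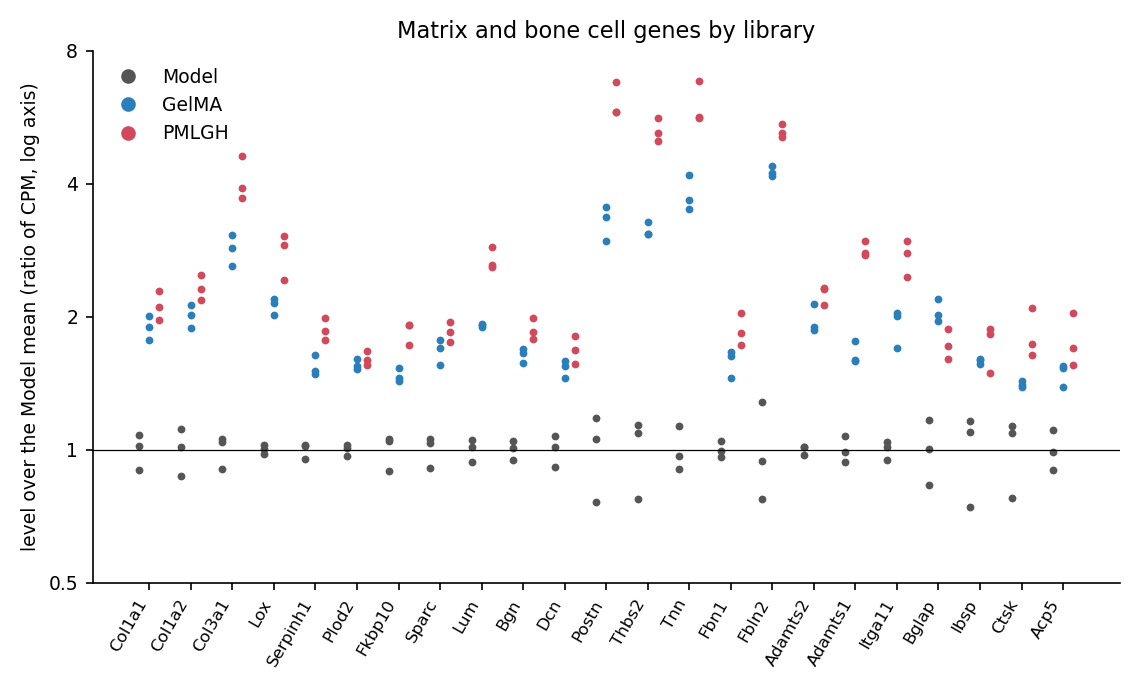
Levels of matrix and bone cell genes in each library, divided by the mean of the 3 Model libraries (ratio of CPM, log axis), with Model in grey, GelMA in blue and PMLGH in red. PMLGH libraries of Postn lie at 608 to 711 CPM against 79.8 to 124 CPM in Model, while GelMA has the highest libraries for Bglap.

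Of the 8 bone cell markers 5 rose over Model (median 0.76), and the 3 that did not pass are genes of osteocytes. Ibsp, a matrix protein of osteoblasts, had 849, 901 and 574 CPM in Model and 1449.5, 1412 and 1153 CPM in PMLGH (0.79 ± 0.13, adjusted p = 0.00035). Bglap, which encodes osteocalcin, had 252, 294 and 209.7 CPM in Model, 493, 553 and 507 CPM in GelMA and 432, 473 and 404 CPM in PMLGH (0.79 ± 0.10 over Model). PMLGH lay above every Model library for both. Sp7, a transcription factor that osteoblasts need, rose by 0.78 ± 0.10. Runx2, which starts that lineage, rose by 0.27 ± 0.07 (adjusted p = 0.016). It did not pass when Model 2, Model 5 or PMLGH 3 was left out, nor on both FPKM scales (highest adjusted p 0.097).

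Osteocytes are the cells buried in bone. Dmp1, a protein of their matrix, had 474, 443 and 298 CPM in Model, 810.1, 841 and 816 CPM in GelMA and 492, 358 and 296 CPM in PMLGH. Sost, their inhibitor of bone formation, had 40.4, 38.7 and 41.7 CPM in Model, 58.2, 64.8 and 67.9 CPM in GelMA and 49.2, 43.3 and 43.0 CPM in PMLGH. Mepe, another osteocyte protein, had 210.2, 207 and 171 CPM in Model, 346, 360.0 and 336 CPM in GelMA and 252, 221 and 203 CPM in PMLGH. For all 3 genes GelMA lay above every other library. None passed against Model, with log2 fold changes of -0.08 ± 0.16 (adjusted p = 0.75), 0.17 ± 0.08 (0.12) and 0.20 ± 0.09 (0.094). The call of Mepe against Model was gained without PMLGH 4 (adjusted p = 0.044). Each was lower in PMLGH than in GelMA. The log2 differences were -1.11 ± 0.16 (adjusted p = 0.001), -0.49 ± 0.07 (adjusted p = 0.0012) and -0.62 ± 0.08 (adjusted p = 0.0005), and with a robust spread the first of these did not pass (adjusted p = 0.066). Phex, a peptidase of both osteoblasts and osteocytes, rose over Model. It had 66.6, 61.7 and 55.9 CPM in Model, 97.5, 106 and 108 CPM in GelMA and 111, 109 and 87.3 CPM in PMLGH, a rise of 0.74 ± 0.09 over Model (adjusted p = 2.3e-05).

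The named osteoclast genes rose. Ctsk, the protease with which osteoclasts digest collagen, had 918, 885 and 629 CPM in Model and 1695, 1405 and 1327 CPM in PMLGH (0.86 ± 0.12), and Acp5, their acid phosphatase, had 552, 492 and 448 CPM in Model and 1011, 845 and 771 CPM in PMLGH (0.82 ± 0.09). Among PMLGH libraries replicate 2 was the highest for both, and no library of Model reached the lowest of PMLGH. Tcirg1, the subunit of the proton pump with which they acidify bone, rose by 0.54 ± 0.07. Of 7 cartilage markers 1 rose and 1 fell. Acan, the proteoglycan of cartilage, rose by 0.36 ± 0.08, Prg4, the lubricant of joint surfaces, fell by 0.38 ± 0.10, and Col2a1, the collagen of cartilage, had 1603, 1428 and 1237 CPM in Model and 1109, 1554 and 1371 CPM in PMLGH with overlap (-0.08 ± 0.11). Without Model 1 or PMLGH 2, 2 cartilage markers rose.

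Of 16 PDGF and FGF ligands and receptors 10 rose and none fell (median 0.64). Pdgfra, a receptor of mesenchymal progenitors, had 50.6, 46.2 and 46.6 CPM in Model and 84.3, 81.6 and 79.7 CPM in PMLGH (0.78 ± 0.07), and Fgf7, a growth factor made by stroma, had 6.37, 4.98 and 6.05 CPM in Model and 13.9, 13.5 and 11.7 CPM in PMLGH (1.17 ± 0.15). Of 14 genes of the IGF axis 9 rose (median 0.52). Igfbp3, a carrier of IGF, had 9.56, 10.2 and 8.98 CPM in Model and 30.2, 30.0 and 31.8 CPM in PMLGH (1.67 ± 0.10), and Igf1 had 60.6, 64.4 and 61.6 CPM in Model and 96.8, 119.8 and 106 CPM in PMLGH (0.79 ± 0.08). Among 18 insulin signalling and glucose-responsive genes 5 rose and 3 fell, with a median of 0.03 against 0.02 for all genes. That of the list turned to -0.01 without Model 1 or PMLGH 4. Without PMLGH 3 these counts were 3 and 1, and without Model 2, 6 fell. Txnip, which glucose is known to induce, had 754, 729.8 and 739.6 CPM in Model and 861, 897 and 866 CPM in PMLGH (0.24 ± 0.05). Arrdc4, its relative, had 33.0, 35.1 and 29.9 CPM in Model and 49.1, 45.4 and 43.6 CPM in PMLGH (0.50 ± 0.09). Akt2, a kinase of insulin signalling, fell by 0.26 ± 0.06, and the insulin receptor Insr had 47.5, 42.5 and 47.2 CPM in Model and 44.6, 44.0 and 41.0 CPM in PMLGH, with overlap (-0.08 ± 0.07). Of 14 Notch genes 6 rose (median 0.41), among them the receptor Notch3 (0.68 ± 0.08) and the ligand Jag1 (0.75 ± 0.09). Of 13 genes of the marrow stromal niche 3 rose (median 0.16), among them the follistatin relative Fstl1 (0.98 ± 0.07). The counts of the niche and insulin lists are not far from the shares over all genes tested, of which 15.7% rose and 11.9% fell.

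The falls were broad and mostly small, and red cell genes made up the largest in absolute level. Hba-a1, an alpha globin, had 50198, 48563 and 49215 CPM in Model and 34483, 36389.9 and 41313 CPM in PMLGH, without overlap (-0.40 ± 0.07, adjusted p = 0.001). Its mean level fell by 11930.4 CPM, more than that of any other called gene, and its call was lost on both FPKM scales (highest adjusted p 0.41). The counts of globin genes are uncertain, since copies are alike. Of 15 genes of heme synthesis and iron uptake 14 fell and none rose (median -0.44). Fech, which puts iron into heme, had 998, 743 and 966 CPM in Model and 663, 562 and 649 CPM in PMLGH (-0.53 ± 0.10). Alas2, the first enzyme of the pathway in red cells, had 2460.0, 2077 and 2437 CPM in Model and 1781, 1651 and 1750.3 CPM in PMLGH (-0.43 ± 0.07). Model 2 was the lowest Model library for both and remained above every PMLGH library. Among 13 erythroid transcription factors and receptors 12 fell (median -0.47), including Klf1, which switches on beta globin (-0.59 ± 0.08), Gata1, the central erythroid factor (-0.48 ± 0.08), and Epor, the receptor of erythropoietin (-0.47 ± 0.08).

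Of 18 genes of the red cell membrane 17 fell and 1 rose (median -0.41). The single rise was that of Slc2a1, a glucose transporter that many cell types use, from 6.08, 7.12 and 7.81 CPM in Model to 18.8, 19.8 and 18.1 CPM in PMLGH (1.43 ± 0.12). Dmtn, a cytoskeletal protein of red cells, had 355, 292 and 358 CPM in Model and 229, 217 and 244 CPM in PMLGH (-0.54 ± 0.08). The summed level of the 18 genes was 15815, 12822 and 15370.1 CPM in Model 1, 2 and 5 and 11135, 10438 and 11667 CPM in PMLGH 2, 3 and 4 (exact two-sided permutation p = 0.1, the smallest that 3 against 3 libraries allow). AGATAA, the letters of a GATA site, was found on either strand in 4 of 13 promoters of this group (30.8%), in 2 of 12 of the heme genes, in 1 of 10 of the erythroid transcription factors and receptors, and in 7.1% of all promoters. Groups that rose held it too, with 3 of 12 CC chemokine and receptor genes (25%), 1 of 5 of the CXCR2 group and 2 of 12 proteoglycans.

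DNA replication and ribosomal protein genes fell by little and in number. Of 34 replication genes 29 fell and none rose (median -0.27), a count of 19 without PMLGH 3. Prim1, a primase subunit, had 121, 116 and 120.02 CPM in Model and 91.4, 76.4 and 90.2 CPM in PMLGH (-0.47 ± 0.07, adjusted p = 0.00028), and Mcm2, of the replicative helicase, had 262, 240.2 and 255 CPM in Model and 211, 191 and 225 CPM in PMLGH (-0.27 ± 0.06). The 2 groups did not overlap for either gene, with PMLGH 3 the lowest library of both. Of 78 cytosolic ribosomal protein genes 44 fell and none rose (median -0.20). That count was 73 without Model 2, 29 without Model 5, 26 without PMLGH 4, 22 without Model 1, 19 without PMLGH 3 and 63 under upper-quartile scaling. Rpl41, a protein of the large subunit, had 1359, 1133 and 1321 CPM in Model and 1019, 939 and 921 CPM in PMLGH (-0.41 ± 0.07). Pseudogene copies make the counts of ribosomal protein genes uncertain. Of 33 proteasome genes 2 rose and 2 fell, and without Model 2 these were 3 and 7. Leaving out other single libraries gave between 0 and 2 rises and between 0 and 3 falls.

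Of 14 genes of B cell precursors 9 were lower than in GelMA, against 1.64% of all genes tested. Against Model 1 fell, a count of 4 without Model 5, 2 without Model 1 or GelMA 4, and 0 without Model 2, PMLGH 2 or PMLGH 4. The median of -0.14 against Model turned to 0.07 without Model 2 and was -0.36 without Model 5, -0.25 without PMLGH 3 and -0.06 without PMLGH 4. Cd79a, a part of the B cell receptor, had 114, 169 and 105 CPM in Model, 152, 186 and 193 CPM in GelMA and 108, 108 and 94.5 CPM in PMLGH. Model 2 lay near GelMA and the other Model libraries near PMLGH. Its log2 fold change was -0.32 ± 0.14 against Model (adjusted p = 0.1) and -0.77 ± 0.14 (adjusted p = 0.0043) against GelMA. The first passed without Model 5 (adjusted p = 0.022) and with no filter on low counts, and the second did not pass with a robust spread (0.094). Of 10 plasma cell genes 5 rose (median 0.35, which was 0.10 without PMLGH 2 and 0.19 without Model 1). Sdc1, which epithelia and stroma also carry, had 48.0, 47.8 and 41.2 CPM in Model, 78.9, 78.5 and 82.9 CPM in GelMA and 121, 125 and 108 CPM in PMLGH (1.37 ± 0.07 over Model, 0.56 ± 0.07, adjusted p = 0.00026 over GelMA).

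**Figure D4:**
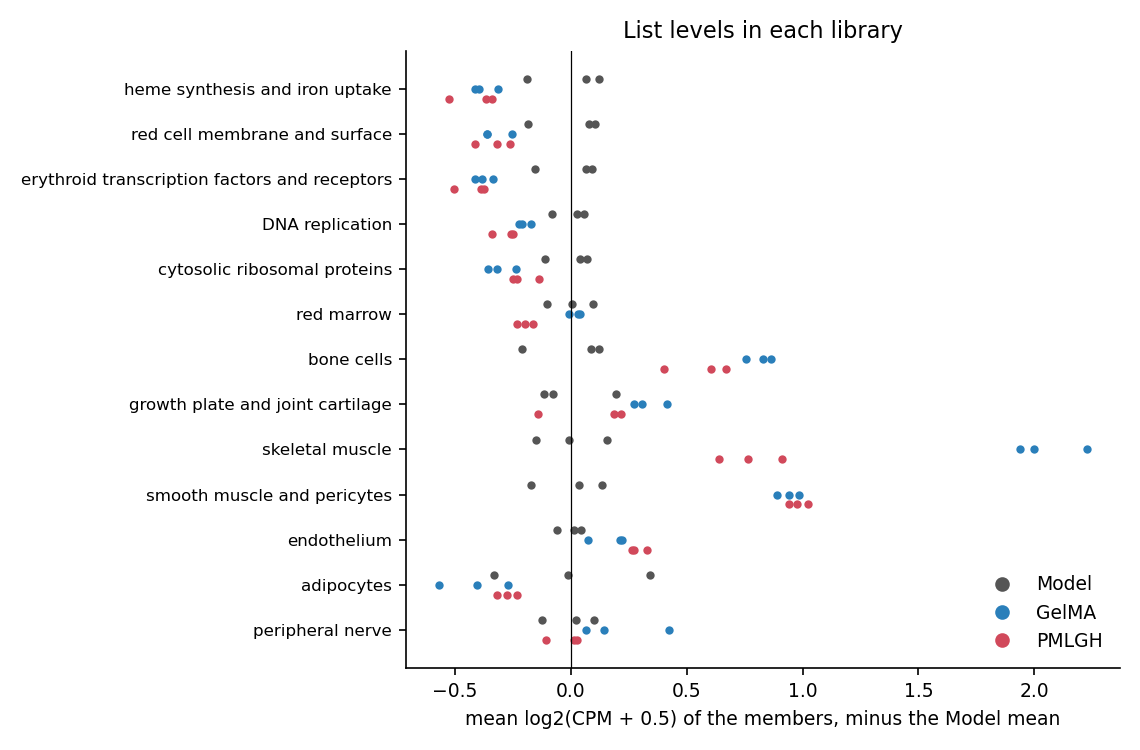
Mean log2(CPM + 0.5) of the members of each list in each library, minus the mean of the 3 Model libraries, with Model in grey, GelMA in blue and PMLGH in red. Red cell lists lie below 0 in all PMLGH libraries, while skeletal muscle lies above 0 in PMLGH and highest in GelMA.

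The named genes with the largest falls were mostly low in level, 21 of 25 having a PMLGH mean under 10 CPM. An exception was Hbb-bs, a beta globin whose counts are uncertain like those of other globins. It ranked 7 among these falls and 4 among the losses in CPM. Krt5, which basal cells of epithelia make as a keratin, had 2.15, 2.65 and 2.96 CPM in Model and 0, 0.027 and 0 CPM in PMLGH, or 268 counts against 1. The ratio was 287 in favour of Model (51.1 to 11379.8, 95% interval of counting error only), and without PMLGH 3 the log2 fold change was -9.54. In GelMA it varied widely, at 2.90, 0.0547 and 2.59 CPM. Prss34, a protease of rodent mast cells and basophils, had 17.4, 43.7 and 21.3 CPM in Model and 4.86, 5.23 and 6.30 CPM in PMLGH (-2.33 ± 0.37). Prss29, a related protease, had 23.5, 50.9 and 25.8 CPM in Model and 6.13, 7.36 and 7.28 CPM in PMLGH (-2.27 ± 0.33). Model 2 was the highest library for both, and the copies of these genes are alike, which makes their counts uncertain. Clca5, of a family of chloride channel regulators, had 35.6, 34.9 and 39.2 CPM in Model, 24.1, 22.1 and 19.6 CPM in GelMA and 15.0, 17.7 and 15.2 CPM in PMLGH (-1.19 ± 0.10 over Model, adjusted p = 3.9e-07). It fell beyond 1.5-fold. Nags, the enzyme that makes the activator of the urea cycle, fell by 0.99 ± 0.17, Slc7a10, an amino acid transporter, by 1.32 ± 0.25, and Popdc2, a membrane protein of muscle and heart, by 1.09 ± 0.23.

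Some markers of tissues other than bone and marrow, such as those of muscle, differed between the groups, while those of nerve overlapped. The part of these tissues in the results above was not tested. Skeletal muscle genes summed to 830.0, 628 and 899 CPM in Model 1, 2 and 5, 2986, 2993 and 3628 CPM in the GelMA libraries and 1200.3, 1006 and 1389 CPM in the PMLGH libraries. Of the 15 markers 11 rose over Model (median 0.62), and 13 were lower than in GelMA (median -1.40), against 1.64% of all genes tested. Acta1, the actin of muscle fibres, had 224, 159 and 228 CPM in Model, 820.3, 818 and 1005 CPM in GelMA and 300.2, 254 and 364 CPM in PMLGH (0.59 ± 0.14 over Model, not passing with a robust spread, adjusted p = 0.053, and -1.53 ± 0.14, adjusted p = 1.6e-05 against GelMA). Myh7, the myosin of slow fibres, had 0.767, 2.20 and 1.61 CPM in Model, 13.3, 17.2 and 18.8 CPM in GelMA and 7.23, 7.20 and 7.25 CPM in PMLGH (2.24 ± 0.25 over Model). Myh3, the embryonic myosin, had 1.86, 0.732 and 0.998 CPM in Model and 4.86, 6.77 and 6.08 CPM in PMLGH (2.30 ± 0.28), while Pax7, the marker of muscle stem cells, had 0 counts in all Model and PMLGH libraries. Among 6 muscle regeneration markers tested 2 rose, Myh3 included, and 4 did not pass. Without Model 1, PMLGH 2 or PMLGH 3, 1 of them rose.

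Of 12 smooth muscle and pericyte markers 11 rose (median 0.85), and their summed level was 430.2, 414 and 431 CPM in Model and 715, 731 and 709 CPM in PMLGH. Acta2, an actin of smooth muscle and of myofibroblasts, had 18.1, 14.5 and 23.6 CPM in Model and 76.6, 80.2 and 75.0 CPM in PMLGH (2.04 ± 0.12), and Tagln, a partner of that actin, had 23.5, 18.4 and 25.2 CPM in Model and 85.1, 87.7 and 85.2 CPM in PMLGH (1.94 ± 0.09). Endothelial markers summed to 473, 444 and 471 CPM in Model and 539, 568 and 550.2 CPM in PMLGH, and 3 of 8 rose, among them Pecam1 (0.48 ± 0.06) and the cadherin Cdh5 (0.55 ± 0.07). Of 8 adipocyte markers 3 fell, among them the fatty acid binder Fabp4 (-0.34 ± 0.08), a count of 5 without Model 2 and 1 without Model 5, PMLGH 2 or PMLGH 3. Adipoq, the adipocyte hormone, had 108, 86.7 and 141 CPM in Model and 101, 98.5 and 106 CPM in PMLGH, with overlap (-0.14 ± 0.14), and it fell without Model 2 (adjusted p = 0.029). Of 12 skin and epithelial markers tested 4 fell and 1 rose, and the list summed to 155, 165 and 161 CPM in Model and 121, 135 and 137 CPM in PMLGH. Krt14, the partner of Krt5, was at or below 0.310 CPM in these 6 libraries, and Krtdap, of the outer skin, had 0 counts in them. Nerve markers summed to 91.5, 81.5 and 94.8 CPM in Model and 93.4, 88.9 and 84.1 CPM in PMLGH, which overlap. Ctrb1, a digestive protease of the pancreas, had 0 counts in Model. Its PMLGH level of 1.35, 2.37 and 0.872 CPM was at least 52.9-fold higher, taking 3 counts over the group as the floor. Under a robust spread it did not pass (adjusted p = 0.074). Cel, a pancreatic lipase, had 0.147, 0.169 and 0.264 CPM in Model and 0.729, 0.431 and 0.545 CPM in PMLGH, without overlap. It did not pass in edgeR (1.54 ± 0.56, adjusted p = 0.052) but passed in DESeq2 and on both FPKM scales. Cela1, a pancreatic elastase, fell by 0.63 ± 0.15, and Cpa1, a carboxypeptidase, had at most 16 counts in any of the 6 libraries.

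**Figure D5:**
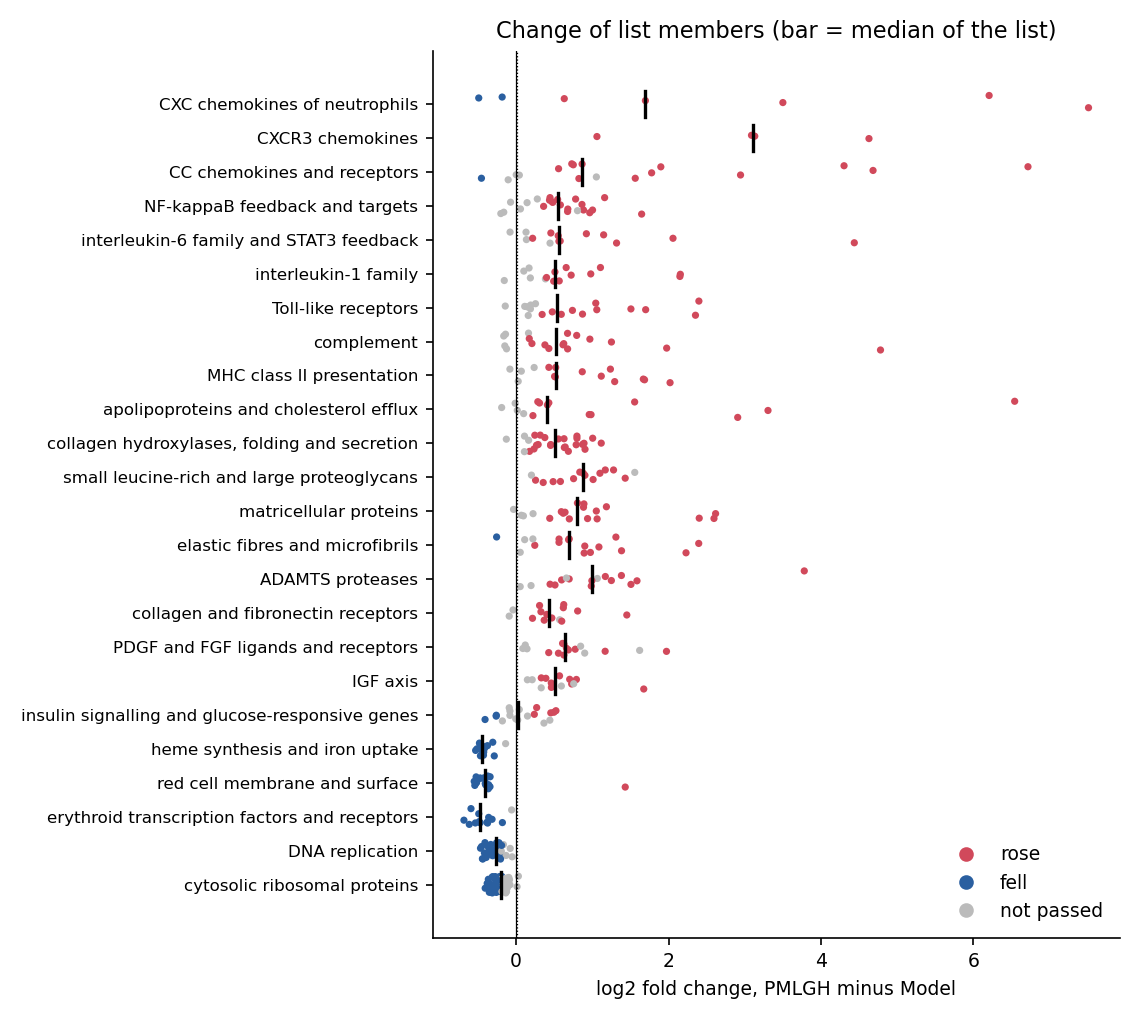
Log2 fold change of PMLGH minus Model for every tested member of 24 gene lists, in red where it rose, blue where it fell and grey where it did not pass, with a black bar at the median of each list and a dotted line at the median of all genes. Matrix and immune lists lie to the right of 0, and red cell, replication and ribosomal lists lie mostly to the left, all within 1 unit of 0 apart from Slc2a1.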

How the data were processed

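Whole-number read counts per gene were deposited by the authors for 9 tibia libraries, and a second deposited table holds FPKM, which equalled count over total and gene length for 22798 of 22798 genes compared (tolerance 0.0001). DESeq2 and R 3.2.0 are named in the submitters' processing notes. For the aligner, counter, genome build, annotation and strand, the sources used here give nothing.

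Of 23768 genes, 16816 passed filterByExpr (edgeR 4.0.16, R 4.3.3). Library sizes were scaled by TMM, and CPM was computed from the counts. The quasi-likelihood test (glmQLFit) was fitted on all 9 libraries, which share 1 estimate of spread, with Benjamini-Hochberg adjustment over all genes and a threshold of 0.05. Changes beyond 1.5-fold were tested with glmTreat. The value after ± is an approximate standard error for a log2 fold change and the SD for a mean CPM. That error is the size of the log2 fold change divided by the square root of the F statistic. For genes with few counts in a group it can be too small. On simulated counts (16379 genes) the fit called 40 of 50 genes changed 1.5-fold, 50 of 50 changed 2-fold and 16 of 16179 unchanged genes. The simulation gave every gene the same spread and every group the Model means, and it changed only genes at 1 CPM or more in Model. It gives no rates for genes below that level or with unequal spread.

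Alternatives were DESeq2 1.42.0, its size factors, upper-quartile scaling, no filter, a robust spread, the 6 libraries alone, a replicate block, limma 3.58.1 on log2(FPKM + 0.1) and log2(FPKM + 1), and leaving out each library. Genes named were the 25 largest rises and falls with at least 1 CPM and no overlap between groups, the 10 largest gains and losses in CPM, up to 6 called members of smallest p and the first 3 members of each list described, the markers, and Lox, Col1a1, Runx2, Bglap, Acp5 and Ctsk. Members and lists were chosen with earlier results of these data known. Of 752 list symbols 744 matched the table and 721 were tested. Of all 23768 genes in the table, 500 matched RefSeq through older names and 2735 did not match. Promoters (RefSeq, GRCr8) matched 12519 of the tested genes by symbol. Sums and permutation tests used Python 3.11.15, pandas 2.3.3 and scipy 1.17.1. Results for 2 genes are not reported here.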

Additional observations from a re-analysis of the deposited data

How the results depend on the processing

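No called result reversed under the alternatives run. The count of genes that fell in PMLGH against Model ranged from 1268 to 2795 when single libraries were left out. Beyond other fold thresholds, 1305 genes rose and 355 fell at 1.2-fold, and 124 rose and 3 fell at 2-fold. The 13 falls beyond 1.5-fold ranged from 6 to 46 without single libraries. In PMLGH against GelMA, 303 genes were higher and 275 lower. The higher genes numbered 455 with no filter on low counts, 590 with only the 6 libraries compared, 491 with DESeq2, 168 with limma on log2(FPKM + 0.1), 185 on log2(FPKM + 1), and 143 to 586 without single libraries. The lower genes numbered 469 with the 6 libraries, 423 with DESeq2 and 144 to 464 without single libraries. With the replicate number as a block 577 were higher and 460 lower. Deviations of same-numbered GelMA and PMLGH libraries correlated at 0.014, 0.027 and -0.008, and PMLGH 4 did not correlate best with GelMA 4. Correlations over all pairs of these libraries lay between -0.028 and 0.027. Values so near 0 cannot decide whether the numbers mark pairs, and the labels do not say. No paired analysis was possible for PMLGH against Model because these groups share only replicate number 2. The cause of these changes was not tested. Leaving out a library also leaves fewer samples. By level, 4.79% of genes under 1 CPM rose, against 16.3% at 1 to 10 CPM.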
